A study of Mus musculus with 25 samples.

Results

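The genes described here are 36 genes of the cell cycle and DNA replication, chosen by name, of 19938 genes that the arrays' platform annotation gives through rows with a single gene symbol. They were grouped by role into replication licensing and the replicative helicase (Mcm2, Mcm3, Mcm4, Mcm5, Mcm6, Mcm7 and Cdc6), nucleotide supply, DNA synthesis and G1/S control (Rrm1, Rrm2, Tyms, Pcna, E2f1 and Ccne2), Cdk1 and the G2/M cyclins (Cdk1, Ccna2, Ccnb1 and Ccnb2), mitotic kinases and the spindle checkpoint (Aurka, Aurkb, Plk1, Ttk, Bub1, Bub1b, Cdc20 and Melk), and chromosome, kinetochore, spindle and cytokinesis proteins (Top2a, Mki67, Cenpe, Cenpf, Kif11, Kif20a, Kif23, Tpx2, Nusap1, Prc1 and Birc5). Their levels were measured on 25 microarrays of mononuclear phagocytes sorted from the Peyer's patches, the lymphoid tissue of the small intestine. All groups came from wild-type (WT) female C57BL/6 mice aged 6 to 8 weeks, and each replicate was a pool of 42 mice, per the labels. The untreated groups were CD11b+ conventional dendritic cells (cDC, 5 arrays), cDC with neither CD11b nor CD8a (DN cDC, 3 arrays), CD8a+ cDC (3 arrays), and lysozyme-expressing macrophages (LysoMac) without TIM-4, from the subepithelial dome (3 arrays), or with TIM-4, from the interfollicular region (3 arrays). CD11b+ cDC (3 arrays) and CD8a+ cDC (5 arrays) were also taken 9 h after mice received R848, a TLR7 ligand, by gavage.

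Before S phase, the MCM proteins are loaded on replication origins as a ring that later unwinds the DNA, and Cdc6 helps to load it. Ribonucleotide reductase (Rrm1 and Rrm2) and thymidylate synthase (Tyms) supply the deoxynucleotides, and Pcna clamps the polymerases to the template. Cdk1 with cyclins A and B drives entry into mitosis, where Aurora and Polo-like kinases, kinesins and checkpoint proteins move and separate the chromosomes. Transcripts of S phase genes are known targets of E2F factors, and those of many G2/M genes of complexes that bind the CHR element and, through NF-Y, the CCAAT box. Tissue cDC arise from dividing precursors and turn over quickly, while many tissue macrophages live longer and divide less.

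For each role class, the promoter of 1 of the members called in the most comparisons, among those with a promoter in the table, is shown, to set beside the elements named above. They are the 250 bases before the start site in RefSeq (GRCm38.p6), written 5′ to 3′ on the gene's own strand, which was the minus strand for all 5. Matches to the E2F words TTTCCCGC, TTTCGCGC, TTTGGCGC and TTTGCCGC, to the CHR word TTTGAA and to CCAAT, each searched on both strands, are in capitals, and no matches overlapped in these promoters.
Mcm7: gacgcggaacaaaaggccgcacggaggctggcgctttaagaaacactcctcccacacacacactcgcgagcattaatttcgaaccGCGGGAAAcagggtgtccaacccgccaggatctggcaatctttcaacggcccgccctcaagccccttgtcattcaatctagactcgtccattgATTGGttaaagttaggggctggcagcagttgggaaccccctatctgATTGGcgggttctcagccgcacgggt
Tyms: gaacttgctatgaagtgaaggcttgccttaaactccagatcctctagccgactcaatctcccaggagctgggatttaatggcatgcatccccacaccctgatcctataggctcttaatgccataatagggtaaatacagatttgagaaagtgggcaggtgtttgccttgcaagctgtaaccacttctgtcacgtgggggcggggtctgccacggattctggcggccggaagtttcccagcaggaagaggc
Ccnb2: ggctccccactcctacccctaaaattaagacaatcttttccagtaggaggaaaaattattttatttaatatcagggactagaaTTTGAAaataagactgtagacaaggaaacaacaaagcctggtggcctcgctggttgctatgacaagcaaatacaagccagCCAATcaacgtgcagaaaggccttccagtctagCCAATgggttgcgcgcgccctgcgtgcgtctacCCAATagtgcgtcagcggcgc
Aurka: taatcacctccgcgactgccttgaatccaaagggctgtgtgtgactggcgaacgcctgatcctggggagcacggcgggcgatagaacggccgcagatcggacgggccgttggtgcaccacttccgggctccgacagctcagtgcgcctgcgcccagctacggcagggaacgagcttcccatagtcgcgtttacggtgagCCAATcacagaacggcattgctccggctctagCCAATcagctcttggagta
Top2a: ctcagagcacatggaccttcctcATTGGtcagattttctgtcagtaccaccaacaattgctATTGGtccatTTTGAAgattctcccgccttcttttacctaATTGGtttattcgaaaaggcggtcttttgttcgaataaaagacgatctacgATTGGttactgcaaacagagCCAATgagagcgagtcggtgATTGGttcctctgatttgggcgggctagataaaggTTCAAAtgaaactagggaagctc
The windows are chr5:138171884-138172133 for Mcm7, chr5:30073626-30073875 for Tyms, chr9:70421555-70421804 for Ccnb2, chr2:172370571-172370820 for Aurka and chr11:99024190-99024439 for Top2a. Mcm7, a helicase subunit with 2 windows in the table of which 1 is shown, has an E2F word beginning 165 bases before the start site and CCAAT boxes at 72 and 26 bases. Ccnb2, a partner of Cdk1, has CCAAT boxes at 87, 54 and 21 bases and a CHR word at 167 bases. Aurka, a spindle pole kinase, has CCAAT boxes at 51 and 19 bases, and Tyms has no match to any of the words. Top2a, the topoisomerase that untangles sister chromatids, has 6 CCAAT boxes and 2 CHR words, the nearest CHR word 23 bases before the start site.

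A promoter was matched for 30 of the 36 members; Mcm4, Ccna2, Ccne2, Aurkb, Kif20a and Tpx2 had none in the table. CCAAT was found in 24 of the 30 (80.0%), against 37.5% of 27025 genes and 33.8% of their 32851 promoters of the same length. An E2F word was found in 5 members (16.7%), against 2.16% of genes and 1.86% of promoters. These were Mcm5, Mcm6, Mcm7, Cdc6 and Cdk1, so 4 of the 6 licensing members with a promoter held one. The CHR word was found in 8 members (26.7%), against 18.3% of genes and 16.0% of promoters. All 8, which are Top2a, Mki67, Kif11, Prc1, Ccnb2, Cdk1, Cdc20 and Mcm2, also held a CCAAT box, a pair present in 6.45% of genes. The matches are descriptions of letters in these windows, not of bound sites.

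The deposited columns did not share a row order, so rows were first matched between 3 array sets: the 14 untreated CD11b+ cDC, DN cDC and LysoMac arrays, the 3 untreated CD8a+ cDC arrays, and the 8 R848 arrays. Values are log2 signals, and array medians were 4.29 to 4.60. Of the 36 members, 35 had a row of their own on the array, Ccnb1 being the exception. After matching, 29 members had values in the 14 untreated arrays, 28 in the untreated CD8a+ arrays and 26 in all arrays. Mki67, Bub1b, Kif23 and Melk had values in the R848 arrays alone, Cenpf and Nusap1 lacked values in the 14 untreated arrays, and Mcm2, Kif11 and Ttk lacked them in the untreated CD8a+ arrays. The sorted cells carried their defining markers. Mertk, a macrophage receptor, had a mean of 8.46 in LysoMac without TIM-4, 8.84 in those with TIM-4 and at most 3.98 in any cDC group. Flt3, the cDC growth factor receptor, averaged 9.69 to 10.42 in the cDC groups and 5.59 and 5.13 in LysoMac, and Xcr1, a CD8a+ cDC receptor, averaged 10.91 in untreated CD8a+ cDC and 8.59 after R848.

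Across groups, the cell cycle genes stood lowest in LysoMac. Averaged over the 26 genes with values in all arrays, the array means were 6.50, 6.32, 6.51, 6.84 and 6.83 in untreated CD11b+ cDC and 6.38, 6.27 and 6.40 in DN cDC. They were 5.61, 5.79 and 5.53 in TIM-4- LysoMac and 5.57, 5.52 and 5.83 in TIM-4+ LysoMac, so that every LysoMac array lay below every array of the untreated cDC. In untreated CD8a+ cDC the means were 6.49, 6.66 and 6.52. After R848 they were 6.24, 6.50 and 6.42 in CD11b+ cDC, and 6.54, 6.42, 6.42, 6.30 and 5.72 in CD8a+ cDC. The group means, from high to low, were 6.60 ± 0.23 (SD, n = 5) in untreated CD11b+ cDC, 6.56 ± 0.09 (n = 3) in untreated CD8a+ cDC, 6.38 ± 0.13 (n = 3) in CD11b+ cDC after R848, 6.35 ± 0.07 (n = 3) in DN cDC, 6.28 ± 0.32 (n = 5) in CD8a+ cDC after R848, 5.65 ± 0.13 (n = 3) in TIM-4- LysoMac and 5.64 ± 0.16 (n = 3) in TIM-4+ LysoMac. All neighbours in this order overlapped by array, though at 2 steps through a single array. Untreated CD8a+ cDC, at 6.49 or higher, overlapped CD11b+ cDC after R848 only at the highest array of the latter (6.50). At the step down to LysoMac, only replicate 5 of CD8a+ cDC after R848, at 5.72, lay within the LysoMac range.

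**Figure D1:**
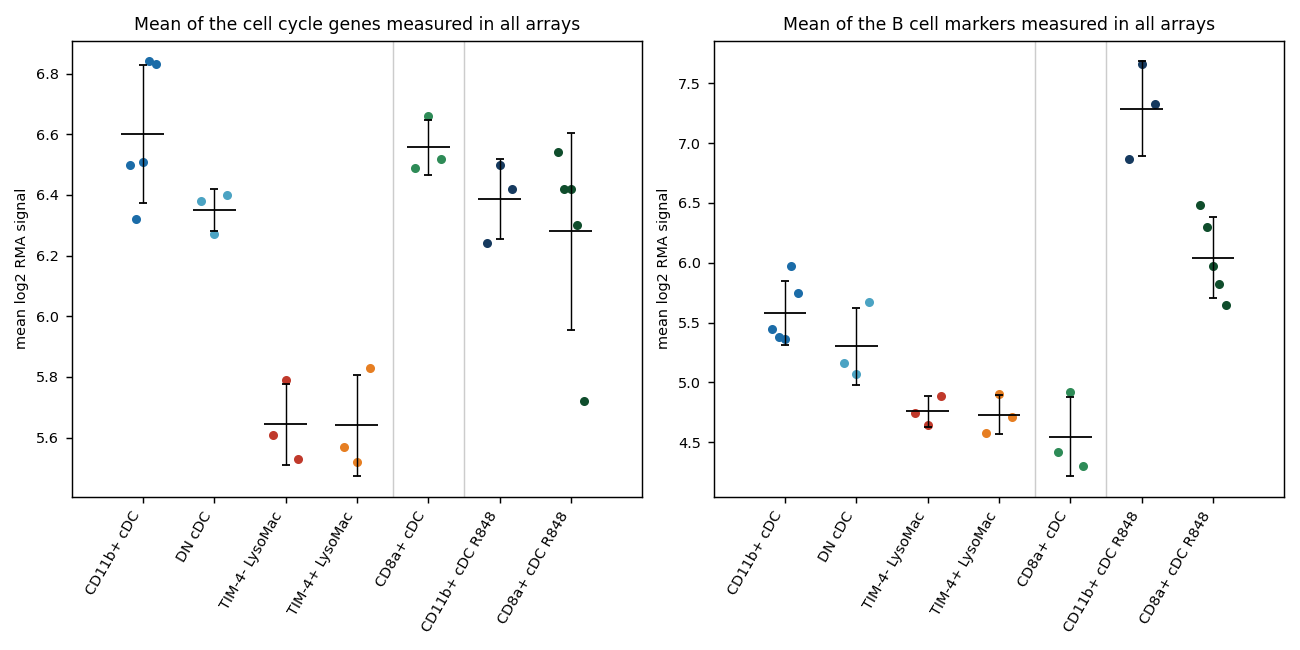
Mean log2 RMA signal per array of the 26 cell cycle genes measured in all arrays (left) and of 5 B cell markers (right), by group; points are arrays, horizontal lines group means, bars SD, and grey verticals separate the array sets. LysoMac arrays lie at 5.52 to 5.83 on the left, and the B cell markers are highest in CD11b+ cDC after R848, at 6.87 to 7.66.

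The comparison of LysoMac with CD11b+ cDC, both untreated and within 1 array set, asked how macrophages and dendritic cells of the same tissue differ. Of the 29 members measured, 24 were lower in LysoMac and 1, E2f1, was higher (limma, Benjamini-Hochberg adjusted p under 0.05, hereafter called). Of all 15778 genes tested, 15.9% were called lower and 13.7% higher. The median member difference was -0.92 on the log2 scale, against -0.01 for all genes. In bulk samples, fewer dividing cells and less RNA of these genes per cell cannot be told apart. In 17 of the 29 members every LysoMac array lay below every CD11b+ cDC array, against 9.55% of all genes.

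Among the licensing genes, 6 of 7 were called lower, with Cdc6 not called (-0.46 ± 0.19 SE, adjusted p = 0.0821 in limma). Mcm6, a helicase subunit, measured 7.84, 7.70, 7.78, 8.35 and 8.25 in CD11b+ cDC, 5.87, 6.54 and 6.27 in TIM-4- LysoMac and 6.05, 5.95 and 6.21 in TIM-4+ LysoMac. The groups did not overlap, and the difference of -1.84 ± 0.20 was 3.58-fold (adjusted p = 1.97e-07 in limma). Mcm4 had the largest difference of all members. It measured 7.34 to 7.94 in CD11b+ cDC and 5.55 to 5.97 in LysoMac, a difference of -1.89 ± 0.15 or 3.71-fold (adjusted p = 8.27e-10 in limma). The other called MCM genes ran from -0.61 (Mcm3) to -1.38 (Mcm7), and the call for Mcm3 was lost when any of 9 of the 11 arrays was left out (adjusted p up to 0.181 in limma).

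In the class of nucleotide supply and DNA synthesis, 5 of 6 genes were called lower. Rrm2, the regulated small subunit of ribonucleotide reductase, measured 6.67, 6.47, 6.40, 7.41 and 6.99 in CD11b+ cDC, 5.17, 5.25 and 5.03 in TIM-4- LysoMac and 4.68, 4.80 and 5.19 in TIM-4+ LysoMac. Its arrays did not overlap, and the difference was -1.76 ± 0.21 (3.39-fold, adjusted p = 7.04e-07 in limma). Tyms, Rrm1, Pcna and Ccne2 (cyclin E2) followed at -1.29, -1.27, -0.99 and -0.74. E2f1, a transcription factor of the G1/S transition, went the other way. It measured 6.25, 6.11, 6.02, 5.93 and 5.69 in CD11b+ cDC and 5.86 to 6.70 in LysoMac, which overlap, with a difference of 0.41 ± 0.13 (adjusted p = 0.0199 in limma). The E2f1 call was lost without any of 4 single arrays, which were CD11b+ cDC replicate 5, TIM-4- replicates 1 and 2 and TIM-4+ replicate 3 (adjusted p up to 0.0751), and with the replicate number as a block (0.35, adjusted p = 0.0995 in limma).

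Cdk1 and both measured G2/M cyclins were called lower. Cdk1 measured 6.33, 6.29, 6.60, 7.65 and 7.60 in CD11b+ cDC, 6.06, 5.89 and 5.27 in TIM-4- LysoMac and 5.43, 6.09 and 5.74 in TIM-4+ LysoMac. The groups did not overlap, but CD11b+ replicates 4 and 5 stood a full log2 unit above the other 3, and the difference was -1.15 ± 0.23 (2.22-fold, adjusted p = 0.000445 in limma). Ccna2, the cyclin A of S phase and mitosis, had the largest difference of this class at -1.51 ± 0.23, and Ccnb2 had -0.92 ± 0.24.

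Of the mitotic kinases and checkpoint genes, 5 of 6 were called lower, with Ttk not called (-0.19 ± 0.14). Ttk had a low signal, with means of 3.92 in CD11b+ cDC and 3.82 and 3.65 in LysoMac. The median gene of these groups was at 4.79 to 4.82. Aurkb, the kinase of the chromosomal passenger complex, measured 5.91, 5.77, 6.18, 6.85 and 7.27 in CD11b+ cDC, 5.60, 5.91 and 5.15 in TIM-4- LysoMac and 5.58, 5.66 and 5.54 in TIM-4+ LysoMac. The groups overlapped, and the difference of -0.82 ± 0.24 (adjusted p = 0.0108 in limma) was -0.78 with an adjusted p of 0.0528 under the replicate block. Plk1, a kinase of mitotic entry and spindle assembly, had the largest difference of the class (-1.01 ± 0.22). Bub1, Aurka and Cdc20, the activator of the anaphase-promoting complex, had -0.84, -0.47 and -0.43, and the Aurka call was lost in 3 of 11 fits that each left out 1 array (adjusted p up to 0.0869 in limma).

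Of the chromosome and spindle genes, 5 of 7 were called lower. Top2a measured 7.51, 7.36, 7.90, 7.95 and 8.19 in CD11b+ cDC, 5.85, 6.36 and 6.05 in TIM-4- LysoMac and 5.95, 5.79 and 6.20 in TIM-4+ LysoMac. The groups did not overlap, their closest arrays being 7.36 and 6.36, with a difference of -1.75 ± 0.20 (3.36-fold, adjusted p = 4.27e-07 in limma). Birc5 (survivin) and Kif11, the kinesin that pushes spindle poles apart, followed at -1.47 and -1.45, then Tpx2 at -0.76 and Kif20a at -0.25. The Kif11 row in these arrays was not accepted in either of the alternative row alignments. The Kif20a call was lost in 7 of 11 fits that each left out 1 array (adjusted p up to 0.105 in limma), with a trended eBayes and with array weights. Kinetochore motor Cenpe (-0.46 ± 0.19) and the midzone protein Prc1 (-0.29 ± 0.19) were not called. Both had low signals, with group means of 3.81 to 4.40, below the median gene of these groups (4.79 to 4.82).

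**Figure D2:**
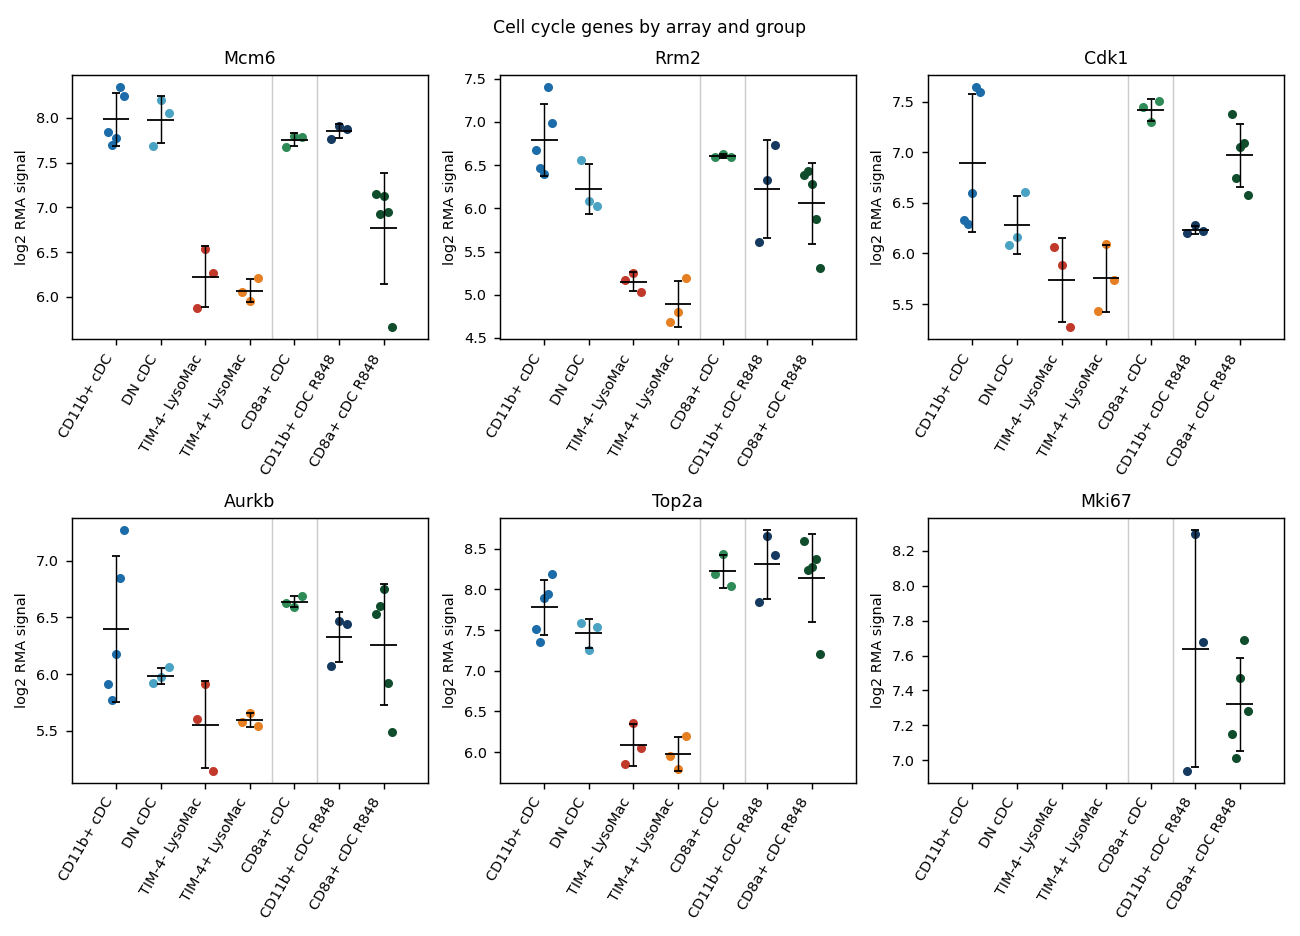
log2 RMA signal of 6 cell cycle genes by array and group; points are arrays, horizontal lines means, bars SD, grey verticals separate the array sets, and the signal axes do not start at 0. Mcm6, Rrm2 and Top2a have no LysoMac array within the range of untreated CD11b+ or DN cDC, Aurkb overlaps between LysoMac and CD11b+ cDC, and Mki67 has values after R848 alone.

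Untreated CD11b+ cDC replicates 4 and 5 had the highest member means of the group, and they also had the highest B cell, T cell, and NK cell and ILC marker means. Their pan cDC means (10.68 and 10.79, against 10.49 to 10.62 in the rest) and cDC1 means (7.45 and 7.46, against 7.23 to 7.40) were likewise the highest. Over the 5 of 11 listed B cell markers measured in all arrays (Ms4a1, Cd79a, Pax5, Blk and Fcer2a), these arrays averaged 5.97 and 5.75, against 5.36 to 5.45 in the other 3. T cell markers averaged 5.94 and 5.97 in these arrays against 5.30 to 5.65 in the other 3, and 4.70 to 5.48 in LysoMac. NK cell and ILC markers averaged 5.83 and 5.75 against 5.05 to 5.42, and 3.93 to 4.75 in LysoMac. The B cell list averaged 5.07 to 5.67 in DN cDC and 4.58 to 4.90 in LysoMac, and 3 of the 6 B cell markers measured here were called lower and 1 higher in LysoMac. Ms4a1 (CD20) averaged 5.88 ± 0.53 (SD, n = 5) in CD11b+ cDC and 4.53 ± 0.23 and 4.34 ± 0.22 (n = 3 each) in the 2 LysoMac groups. The 4 of 10 germinal centre B cell markers in all arrays (Bcl6, Rgs13, Mybl1 and Nuggc) averaged 4.47 to 4.64 in CD11b+ cDC and 3.55 to 3.67 in LysoMac, with 1 of the 4 called lower. Without replicates 4 and 5, 19 members were called lower in LysoMac and 0 higher. These arrays were left out after their high member means were seen, and a smaller difference without them follows from that choice. The difference of Aurkb went from -0.82 to -0.38 and that of Mcm3 from -0.61 to -0.25, while Kif20a stayed near its value (-0.25 to -0.23) and lost its call with the fewer arrays. Calls were also lost for Ccne2 (-0.50), Aurka (-0.34) and E2f1 (0.29). The part of RNA from B cells, T cells or NK cells and ILC in the result was not tested.

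DN cDC were compared with LysoMac in the same array set. Here 14 of 29 members were called lower in LysoMac and 0 higher, with 21 lower and 0 higher at an unadjusted limma p under 0.05, while 13.3% of the 15778 genes were called lower and 11.9% higher. The median member difference was -0.66, against 0.02 for all genes, and 16 members did not overlap between arrays in that direction, against 14.3% of genes. Mcm6 measured 7.69, 8.20 and 8.05 in DN cDC and had the largest difference, -1.83 ± 0.24 (adjusted p = 2.33e-06 in limma). Rrm2, at 6.56, 6.09 and 6.03 in DN cDC, differed by -1.20 ± 0.25, Ccna2 by -1.13 ± 0.27, and Top2a, at 7.59, 7.26 and 7.54, by -1.43 ± 0.24. Also called were Mcm2, Mcm4, Mcm5, Mcm7, Pcna, Tyms, Ccnb2, Kif11, Kif20a and Tpx2, so the licensing class had 5 of 7 members called.

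The mitotic kinases had 0 of 6 called in this comparison, with differences of -0.58 to -0.14, of which Bub1, Aurka and Plk1 had an unadjusted limma p under 0.05. Cdk1 measured 6.08, 6.16 and 6.61 in DN cDC and Aurkb 5.92, 5.97 and 6.06. Cdk1 (-0.54 ± 0.27) thus overlapped LysoMac by array, and Aurkb (-0.41 ± 0.28) did not, though neither was called. The Kif11 call was lost without any of 4 single arrays, the Kif20a call without any of 7, and the Tpx2 call without DN replicate 3 (adjusted p up to 0.133, 0.20 and 0.133 in limma). Several marker lists moved with this contrast. T cell markers were called lower in LysoMac for 5 of 6 measured, epithelium markers for 6 of 10, plasma cell markers for 3 of 6, and stroma and endothelium markers for 7 of 9. The T cell list averaged 6.10 to 6.37 in DN cDC and 4.70 to 5.48 in LysoMac, and the epithelium list 6.33 to 7.46 and 4.26 to 5.48. For stroma and endothelium, over the 6 of 10 markers measured in all arrays, the means were 6.25 to 6.79 in DN cDC, 4.17 to 4.95 in CD11b+ cDC and 4.18 to 5.01 in LysoMac. The part of all these lists in the result was not tested.

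DN and CD11b+ cDC were compared next. None of the 29 members was called (0 higher and 0 lower), with 1 higher (E2f1) and 4 lower (Cdk1, Birc5, Rrm2 and Cdc20) at an unadjusted limma p under 0.05. Of all genes, 2.59% were called higher and 1.66% lower in DN cDC. The members' median difference was -0.32, against -0.04 for all genes, with 24 of 29 below 0 and a range from -0.77 (Birc5) to 0.45 (E2f1). Without CD11b+ replicates 4 and 5 the median was -0.12, and without CD11b+ replicate 2, 1 member was called lower.

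TIM-4+ and TIM-4- LysoMac were compared as 3 against 3 arrays. None of the 29 members was called in either direction, and 1, Cdc20, was higher at an unadjusted limma p under 0.05 (0.29 ± 0.12, adjusted p = 0.745). Of all genes, 0.196% were called higher and 0.222% lower. The median member difference was -0.03, and the members ran from -0.47 (Ccna2) to 0.30 (Rrm1 and Ccnb2). Mcm6 differed by -0.15 ± 0.27, Rrm2 by -0.26 ± 0.29, Cdk1 by 0.01 ± 0.31, Aurkb by 0.04 ± 0.32 and Top2a by -0.10 ± 0.28. On simulated data, 89 of 100 genes drawn at random and changed 2-fold were called in this comparison. Fewer genes were called in the data than were changed in the simulation, so the adjusted p is harder to pass in the data. The recovery rate of the members themselves was not tested.

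**Figure D3:**
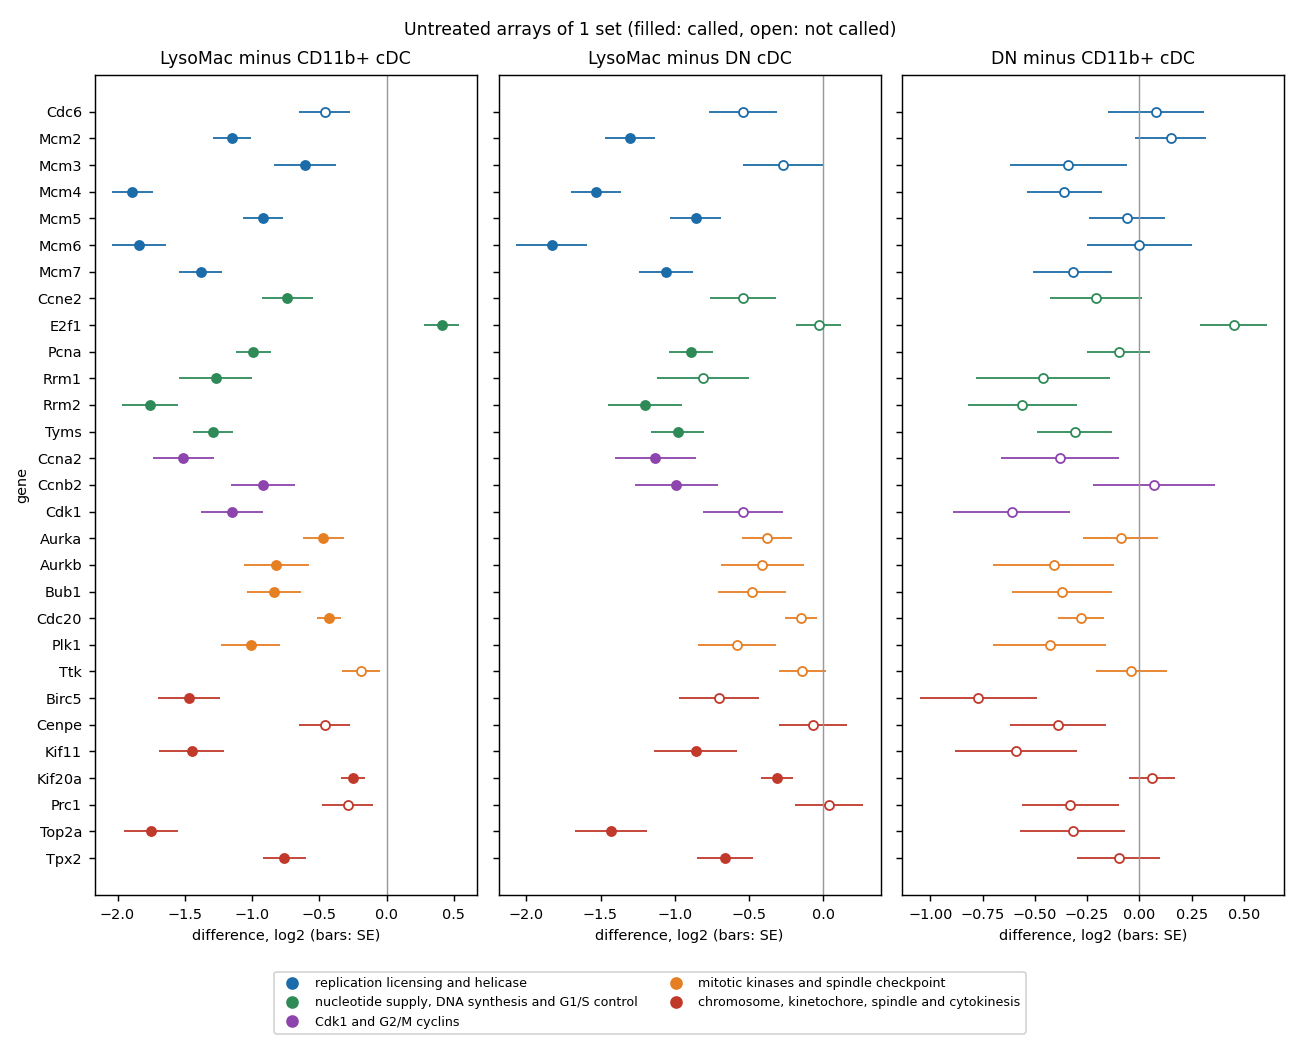
Difference in log2 signal with its SE for each of the 29 members measured in the untreated CD11b+ cDC, DN cDC and LysoMac arrays, coloured by role; filled points are called by limma (adjusted p under 0.05), open points are not. Against CD11b+ cDC, 24 members are called lower in LysoMac and E2f1 higher; against DN cDC, 14 are called lower; between DN and CD11b+ cDC none is called.

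Untreated CD8a+ and CD11b+ cDC were compared across array sets, so the subset and the array set cannot be told apart. Of 26 members, 2 were called higher and 3 lower in CD8a+ cDC, while 8.77% of the 13174 genes were called higher and 38.7% lower. The median of all genes was -0.19 in this contrast, and that of the members -0.06. With arrays shifted to a common median, 6 members were called higher (Top2a, Cdk1, Aurka, Kif20a, Cenpe and Tpx2) and 2 lower, with a member median of 0.18 and an all-gene median of 0.06. The share of calls that were higher rose from 18.5% to 59.5% over all genes. Without CD11b+ replicate 2 or CD8a+ replicate 1 or 2, 1 member was called higher.

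Aurka measured 6.71, 6.98 and 6.58 in CD8a+ cDC and 5.83, 6.22, 5.90, 6.00 and 6.62 in CD11b+ cDC. The arrays overlapped, and the difference was 0.64 ± 0.18 (adjusted p = 0.00604 in limma), with a smaller one of 0.29 ± 0.11 for Kif20a, a kinesin of cytokinesis whose arrays did not overlap (adjusted p = 0.041 in limma). The Kif20a call was lost in 5 of 8 fits that each left out 1 array (adjusted p up to 0.208 in limma), with the filter on dim genes and with a trended eBayes. Mcm7 was called lower. It measured 5.82, 6.03 and 6.11 against 6.64, 6.56, 7.12, 7.35 and 6.94, with no overlap and a difference of -0.94 ± 0.19 (adjusted p = 0.000425 in limma). Tyms, the largest of its class, had -0.79 ± 0.18 and Mcm4 had -0.64 ± 0.18. The Mcm4 call was lost after both scalings (-0.39 with the common median, adjusted p = 0.104), and was the loss that left 2 lower calls.

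Of the other genes described by array, none was called here. Top2a measured 8.19, 8.44 and 8.04 in CD8a+ cDC (difference 0.44 ± 0.25), Cdk1 7.45, 7.30 and 7.51 (0.52 ± 0.28), and Aurkb 6.63, 6.59 and 6.69 (0.24 ± 0.29). Mcm6 measured 7.67, 7.80 and 7.79 (-0.23 ± 0.25) and Rrm2 6.60, 6.63 and 6.59 (-0.18 ± 0.26). For each of these 5 genes the CD8a+ arrays overlapped the CD11b+ range. The B cell markers averaged 4.30 to 4.92 in untreated CD8a+ cDC, below the CD11b+ range. Of the 5 measured, 2 were called lower (40.0%), beside 38.7% of all genes, with differences from -3.52 to -0.13 (median -0.45). Ms4a1 averaged 5.75 ± 0.39 (SD, n = 3) in CD8a+ and 5.88 ± 0.53 (n = 5) in CD11b+ cDC. The part of these markers in this contrast was not tested.

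The R848 response was taken as treated minus untreated cells of the same subset. The treated and untreated arrays lay in different array sets, so treatment and array set cannot be told apart. Both responses share no arrays with each other, but each shares its untreated arrays with comparisons above. In CD11b+ cDC, 7 of 29 members were called lower after R848 and 2 higher, while 23.3% of genes were called lower and 17.6% higher. The members' median was -0.14, against -0.03 for all genes. The members' share of lower calls, 24.1%, was thus close to that of all genes.

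The lower calls were 3 licensing genes, 2 of nucleotide supply and G1/S control, Ccnb2 and Cdc20. Mcm7 measured 5.80, 5.65 and 5.19 after R848, below all 5 untreated arrays, a difference of -1.37 ± 0.19 (2.58-fold, adjusted p = 6.93e-06 in limma). Mcm2 (-1.01) and Mcm4 (-0.62) were also called, whereas Mcm6 measured 7.76, 7.91 and 7.88, within the untreated range (-0.13 ± 0.25). Tyms had -0.93 ± 0.18 and E2f1 -0.55 ± 0.16, and Rrm2, at 5.61, 6.33 and 6.73, was not called (-0.56 ± 0.26, adjusted p = 0.0859 in limma). Ccnb2 measured 7.18, 7.33 and 7.19, below the untreated 7.90 to 8.44 (-0.88 ± 0.29, adjusted p = 0.0182 in limma), and its call was lost without treated replicate 1 or 3 (adjusted p = 0.056 and 0.055). Cdk1, at 6.20, 6.28 and 6.22, lay below all untreated arrays without being called (-0.66 ± 0.28, adjusted p = 0.0628 in limma). Cdc20 was the called member of the mitotic kinases and checkpoint class (-0.62 ± 0.11), and Aurkb, at 6.07, 6.47 and 6.44, was not called (-0.07 ± 0.29).

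Both higher calls were spindle genes. Cenpe measured 4.71, 5.67 and 5.71 after R848 and 4.33, 4.17, 4.85, 4.02 and 4.37 before, so that 1 treated array lay within the untreated range; the difference was 1.02 ± 0.23 (2.03-fold, adjusted p = 0.00156 in limma). Tpx2, which activates Aurora A on the spindle, measured 6.50, 6.72 and 6.54 against 5.58 to 5.91, with no overlap and a difference of 0.84 ± 0.20 (adjusted p = 0.00187 in limma). Top2a measured 7.84, 8.66 and 8.43 and was not called (0.53 ± 0.25). Without untreated replicates 4 and 5, 4 members were called higher and 6 lower, and Mcm4 lost its call (-0.44, adjusted p = 0.0669 in limma). The B cell markers rose in the same contrast, with 6 of 6 measured called higher and list means of 6.87 to 7.66 after R848 against 5.36 to 5.97 before, and Ms4a1 averaged 8.62 ± 0.57 (SD, n = 3) against 5.88. The germinal centre list had 3 of 4 higher and the plasma cell list 4 of 6. Their part in the members' values was not tested.

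In CD8a+ cDC, 8 of 28 members were called lower after R848 and 0 higher, with 11 lower and 1 higher (Ccne2) at an unadjusted limma p under 0.05. Of 15725 genes, 14.9% were called lower and 41.8% higher, and the medians were -0.32 for the members and 0.18 for all genes. With the common median, which brought the all-gene median to 0.02 and the share of calls that were higher from 73.8% to 51.0%, 11 members were lower and 0 higher. With cyclic loess, which tested 26 members, 7 were lower and 0 higher, with 51.1% of all calls higher. The call count rested in part on single arrays. Without untreated replicate 2 it was 4 lower and 1 higher, and without treated replicate 5 it was 5 lower and 2 higher.

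The lower calls were 3 licensing genes, 3 of nucleotide supply and G1/S control, and Aurka and Cdc20. Mcm3 measured 6.80, 6.31, 6.05, 6.01 and 5.19 after R848 and 7.22, 7.30 and 7.50 before, with no overlap and a difference of -1.27 ± 0.28 (2.41-fold, adjusted p = 0.000643 in limma). Mcm6 measured 7.15, 6.93, 7.13, 6.95 and 5.66 after R848, all below the untreated arrays, a difference of -0.99 ± 0.25 (adjusted p = 0.00193 in limma). E2f1 measured 4.82, 5.34, 5.34, 4.95 and 5.40 against 5.64, 5.78 and 5.76, again with no overlap (-0.56 ± 0.16, adjusted p = 0.00559 in limma). Cdc20 had -0.55 ± 0.11, Mcm4 -0.53, Aurka -0.45, Tyms -0.44 and Pcna -0.42. Leaving out single arrays lost the calls of Mcm4 (1 of 8 arrays), Aurka (5), Pcna (2) and Tyms (5), and never those of Mcm3, Mcm6, E2f1 and Cdc20.

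Top2a measured 8.60, 8.24, 8.28, 8.37 and 7.21 after R848 and was not called (-0.08 ± 0.25). Cdk1 measured 7.38, 6.75, 7.05, 7.09 and 6.58 (-0.45 ± 0.28), Aurkb 6.53, 6.60, 6.75, 5.92 and 5.49 (-0.38 ± 0.29) and Rrm2 6.39, 6.43, 6.28, 5.88 and 5.31 (-0.55 ± 0.26), and none was called, although all 5 Rrm2 arrays lay below the untreated ones. In all 4 genes treated replicate 5 was the lowest array. This array and replicate 4 had the lowest member means of the group and also the lowest means of several marker lists. B cell markers averaged 5.65 and 5.82 in replicates 5 and 4, against 5.97 to 6.48 in the other 3 and 4.30 to 4.92 before treatment, and 4 of 7 were called higher after R848. Macrophage markers averaged 4.69 and 5.27 against 6.07 to 6.48, and plasma cell markers 5.77 and 5.70 against 6.59 to 6.95. By smaller margins, cDC1 markers averaged 7.54 and 7.66 against 7.73 to 7.86, and NK cell and ILC markers 5.48 and 5.51 against 5.52 to 5.96. Without both arrays, 4 members were called lower and 2 higher, the median was -0.07, and Mcm3, Mcm6, E2f1 and Cdc20 kept their calls. Both arrays were left out after seeing the data and are the lowest in member mean, so fewer lower calls without them follow from that choice. The part of the marker lists in the members' values was not tested.

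**Figure D4:**
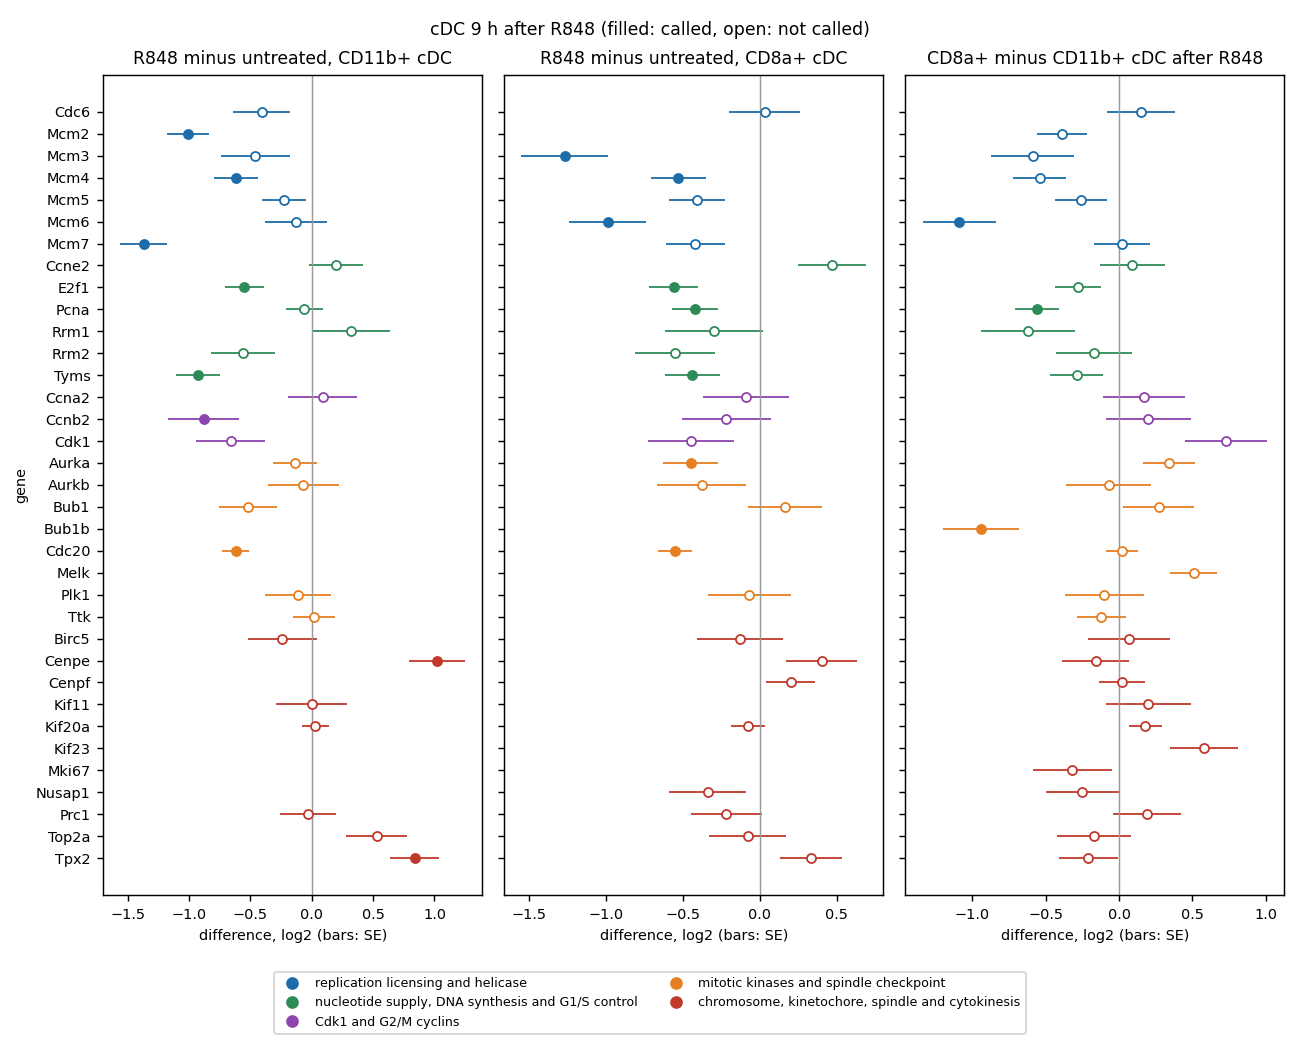
Difference in log2 signal with its SE for each measured member after R848 against untreated CD11b+ cDC (left) and CD8a+ cDC (middle), and between CD8a+ and CD11b+ cDC after R848 (right), coloured by role; filled points are called by limma (adjusted p under 0.05). Cenpe and Tpx2 are called higher in CD11b+ cDC, and all 8 called members are lower in CD8a+ cDC.

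The difference between both responses was tested directly as an interaction. It spans all 3 array sets, so a difference in response and the array set cannot be told apart. The row of Mcm7 in the 14 untreated arrays was not accepted when rows were aligned to the other cDC subset, so its 5 calls have no value in that alternative. Of 26 members, 1 was called, Mcm7, which was less reduced in CD8a+ than in CD11b+ cDC (0.95 ± 0.27, adjusted p = 0.0101 in limma), while 27.1% of genes were called higher and 6.13% lower. The median of all genes was 0.21. Mcm7 averaged 5.55 in CD11b+ and 5.56 in CD8a+ cDC after R848, so its difference lay in the untreated means, 6.92 and 5.98. With a common median the Mcm7 difference was 0.71 (adjusted p = 0.0746 in limma), 0 members were higher and 1 lower, and the share of all calls that were higher went from 81.5% to 45.3%. With cyclic loess, Mcm7 was called higher and 2 members lower, with 48.5% of all calls higher. No member was called lower in the fit as reported, with 1, Mcm6, at an unadjusted limma p under 0.05 (-0.85 ± 0.35, adjusted p = 0.0623).

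After R848, CD8a+ and CD11b+ cDC were compared within 1 array set, where 35 members had values. Of these, 3 were called lower in CD8a+ cDC and 0 higher, with 6 lower and 3 higher (Cdk1, Kif23 and Melk) at an unadjusted limma p under 0.05. Of 19938 genes, 6.67% were called lower and 5.75% higher, and the medians were -0.10 for the members and 0.03 for all genes. Mcm6 was the largest, with all 5 CD8a+ arrays (5.66 to 7.15) below all 3 CD11b+ arrays (7.76 to 7.91), a difference of -1.09 ± 0.25 (2.13-fold, adjusted p = 0.00371 in limma). Pcna measured 10.37, 10.12, 10.19, 10.01 and 9.41 in CD8a+ cDC and 10.52, 10.62 and 10.60 in CD11b+ cDC, with no overlap (-0.56 ± 0.15, adjusted p = 0.0175 in limma). Bub1b, a kinase-like protein of the spindle checkpoint, measured 5.99, 6.21, 5.98, 5.45 and 4.96 against 6.48, 6.74 and 6.76 (-0.94 ± 0.26, adjusted p = 0.0439 in limma). The Bub1b call was lost in 6 of 8 fits that each left out 1 array (adjusted p up to 0.151 in limma) and with a common median (adjusted p = 0.0505), and the Pcna call in 2 of 8 (up to 0.0714).

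Mki67, the proliferation marker Ki-67, could be read in this contrast alone. It measured 6.94, 8.30 and 7.68 in CD11b+ cDC and 7.15, 7.01, 7.47, 7.69 and 7.28 in CD8a+ cDC. The ranges overlapped fully, and the difference was -0.32 ± 0.27 (adjusted p = 0.623 in limma). Cdk1, at 6.58 to 7.38 in CD8a+ cDC and 6.20 to 6.28 in CD11b+ cDC, did not overlap, but was not called (0.73 ± 0.28, adjusted p = 0.0978 in limma). Melk, a mitotic kinase, measured 6.22, 5.74, 5.97, 5.72 and 5.41 in CD8a+ cDC and 5.18, 5.38 and 5.34 in CD11b+ cDC, again without overlap and not called (0.51 ± 0.16, adjusted p = 0.0809 in limma). Top2a (-0.17 ± 0.25), Rrm2 (-0.17 ± 0.26), Aurkb (-0.07 ± 0.29), Kif23, a kinesin of cytokinesis (0.58 ± 0.23), the spindle protein Nusap1 (-0.25 ± 0.25) and the kinetochore protein Cenpf (0.02 ± 0.16) overlapped and were not called. Without CD11b+ replicate 2 or 3, 1 member was called lower. With the arrays of both groups alone in the fit, 0 were lower and 1 higher. The B cell markers were lower in CD8a+ cDC, with 9 of 10 called, and Ms4a1 averaged 7.58 ± 0.42 (SD, n = 5) against 8.62 ± 0.57 (n = 3); their part in the members' differences was not tested. Without CD8a+ replicates 4 and 5, 2 members were called lower (Mcm6 and Bub1b) and 1 higher.

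Within groups, members moved together from array to array. Over the 26 members and 25 arrays, deviations from group means correlated at 0.34 on average between pairs of members, against 0.01 over all genes. This is a description, since all members of an array share its RNA pool and depth of signal. Differences between array sets are removed with the group means. The member mean deviated most in replicate 5 of CD8a+ cDC after R848 (-0.56), and from -0.28 to 0.26 in the other arrays. How far the correlation rests on single arrays was not tested. Pcna (0.54), Top2a (0.53), Mcm4 and Plk1 (0.50 each) correlated most with the other members, and E2f1 was the one with a negative mean (-0.22).

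Other genes of the pathway were read from 3 lists. In LysoMac against CD11b+ cDC, 22 of 36 further replication and S phase genes were called lower and 1 higher (list median -0.49), as were 27 lower and 5 higher of 50 further G2/M genes (-0.45). Dut, which removes dUTP, Prim1, a primase subunit, and Uhrf1, which guides maintenance DNA methylation, had the largest replication differences (-1.96 ± 0.25, -1.72 ± 0.20 and -1.58 ± 0.25). Lmnb1 (lamin B1), Hmgb2 and Stmn1 led the G2/M list at -2.52 ± 0.13, -1.46 ± 0.10 and -1.41 ± 0.20. Of 20 G1 cyclins, Cdk inhibitors and related genes, 10 were lower and 4 higher, led by E2f8 (-1.53), Ccnd3 (cyclin D3, -1.46) and the Cdk4/6 inhibitor Cdkn2c (-1.43). Against DN cDC the counts were 16 lower and 1 higher of 36, 12 and 4 of 50, and 7 and 3 of 20, and between both LysoMac groups 0 genes of the 3 lists were called. Of all genes, 15.9% were called lower and 13.7% higher against CD11b+ cDC, and 13.3% and 11.9% against DN cDC. Between both LysoMac groups 0.196% were called higher and 0.222% lower.

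After R848, CD8a+ cDC had 9 of 37 replication genes lower and 6 higher, with Dna2 (-2.43 ± 0.14), Cdc25a (-2.12 ± 0.18) and Brca1 (2.02 ± 0.16) changing most, and 8 lower and 8 higher of 50 G2/M genes, with Cenpn at 2.02 ± 0.18 and Wee1, which inhibits Cdk1, at 1.76 ± 0.20. Kif4, a chromosome kinesin counted among the 8 lower, had -5.47 ± 0.22, from 10.38 in untreated CD8a+ cDC to 4.90. Its 3 treated CD11b+ arrays also averaged 4.77. Dna2 averaged 7.12 in untreated CD8a+ cDC, and 4.69 and 5.48 in treated CD8a+ and CD11b+ cDC. Like Kif4, Dna2 had no value in the other untreated arrays. Whether either row was matched correctly in the untreated CD8a+ arrays was not tested. Among 19 G1 and inhibitor genes, 8 were higher (42.1%) and 4 lower (21.1%). Of all genes 41.8% were called higher and 14.9% lower, against 16.2% and 24.3% of the replication list and 16.0% each way of the G2/M list. Ccng2, a cyclin linked to cell cycle arrest, averaged 6.24 before and 9.66 after R848 (3.42 ± 0.12), Mxd1, an antagonist of Myc, 7.23 and 10.47 (3.24 ± 0.15), and Myc 8.52 and 5.83 (-2.69 ± 0.34). In CD11b+ cDC, 10 of 36 replication genes were lower and 2 higher, 7 of 50 G2/M genes lower and 13 higher, and 6 of 20 G1 and inhibitor genes lower and 7 higher. These are 27.8%, 14.0% and 30.0% lower and 5.56%, 26.0% and 35.0% higher, beside 23.3% and 17.6% of all genes.

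Between the subsets after R848, the lists had 7 lower and 1 higher of 46, 1 and 4 of 59, and 8 and 4 of 27 genes in CD8a+ cDC. These are 15.2%, 1.69% and 29.6% lower and 2.17%, 6.78% and 14.8% higher, beside 6.67% and 5.75% of all genes. Brca1 (1.01 ± 0.16), Gins3 (-0.98 ± 0.22) and Prim1 (-0.80 ± 0.24) led the replication list, Cenpn (1.12 ± 0.18), Wee1 (0.92 ± 0.20) and Lmnb1 (-0.55 ± 0.16) the G2/M list, and Myc (-2.17 ± 0.34), Ccnd1 (-1.66 ± 0.24) and Cdkn2b (-1.25 ± 0.19) the G1 list. In untreated CD8a+ against CD11b+ cDC, 0 of 28 replication genes were called higher and 12 lower, and 13 of 44 G2/M genes higher and 4 lower. In the G1 list 0 of 16 were higher and 12 lower. The lower shares were 42.9%, 9.09% and 75.0%, beside 38.7% of all genes. The higher shares were 0%, 29.5% and 0%, beside 8.77%. The lower share of the replication list was thus close to that of all genes, and this comparison runs across array sets. In DN against CD11b+ cDC, 0 of 36, 2 of 50 and 3 of 20 were called, beside 2.59% of all genes higher and 1.66% lower.

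The remaining marker lists are given by group mean, in the order untreated CD11b+, DN and CD8a+ cDC, TIM-4- and TIM-4+ LysoMac, and CD11b+ and CD8a+ cDC after R848. T cell markers averaged 5.69, 6.20, 4.04, 5.23, 4.85, 4.34 and 4.93, with Cd3e at 4.90 in untreated CD8a+ cDC and 6.66 in DN cDC. Macrophage markers averaged 7.59, 7.15, 5.45, 9.58, 10.31, 7.05 and 5.74, pan cDC markers 10.63, 10.29, 10.27, 8.15, 7.26, 10.24 and 9.56, cDC1 markers 7.36, 7.28, 10.02, 5.87, 5.82, 6.52 and 7.71, and cDC2 markers 6.08, 5.27, 4.14, 6.09, 5.89, 5.01 and 4.39. Plasma cell markers averaged 5.66, 6.20, 4.83, 5.30, 5.48, 7.07 and 6.34. NK cell and ILC markers averaged 5.49, 5.25, 4.75, 4.53, 4.12, 4.91 and 5.64, plasmacytoid DC markers 6.91, 7.17, 4.99, 7.48, 7.55, 6.42 and 5.04, neutrophil markers 4.49, 4.41, 3.63, 5.23, 4.84, 4.09 and 4.24, and epithelium markers 5.50, 6.84, 4.71, 4.76, 4.89, 4.52 and 4.33. Several of these lists thus differ between the groups compared above, and their part in the members' differences was not tested.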

How the data were processed

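Sorted-cell RNA (2 to 20 ng, amplified, per the labels) was hybridised to Affymetrix Mouse Gene 1.0 ST arrays. The authors deposited log2 values, made by RMA with Expression Console 1.4.1 according to the submitters' processing notes. No source used here states the genome build, or that all arrays went through 1 normalization. Row names fit the R848 arrays, and values correlated across rows at 0.938 or more within an array set and at 0.075 to 0.225 between sets. Of 35556 rows, the 28939 from the first annotated row on were matched by a monotone alignment of untreated to R848 arrays of the same cDC subset, which can favour rows with a small R848 response. Rows were accepted where 3 settings agreed, inside gap-free runs with 3 rows on each side and with 10 neighbours a side correlating at 0.8 or more: 21632 rows (74.8%) for the 14 untreated arrays and 21778 (75.3%) for the untreated CD8a+ arrays, against 59 and 90 after rolling the rows. In simulated data at most 1.02% of accepted rows were wrong. There, the CD8a+ R848 profile was aligned to the CD11b+ R848 profile, with 500 rows out, 500 in and 200 changed 4-fold. Both profiles came from 1 array set, so this rate cannot be carried over to the alignment across array sets and treatment.

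Rows with 1 symbol were kept, taking for each gene the row present in most arrays and then the highest mean; Top2a and Pcna had 2 rows. Genes were tested with limma 3.58.1 (R 4.3.3) with 7 group means, lmFit and eBayes, and Benjamini-Hochberg adjustment over all genes tested; calls are adjusted p under 0.05 and errors of differences are limma's SE. LysoMac is the mean of both LysoMac groups. In simulated data, 95 of 100 genes drawn at random and changed 2-fold were recovered for the R848 response of CD8a+ cDC over 13174 genes. The number of arrays limits the precision. No label says that replicate numbers pair samples, so they were not used as a block. In 65 pairs of same-numbered arrays, deviations from group means correlated at -0.23 to 0.17, with 9 over 0.1. Among the untreated CD11b+ cDC, DN cDC and LysoMac arrays they ran from -0.106 to 0.168, most above 0. Differently numbered pairs were not compared, so these values cannot decide whether samples were paired. The 36 members and all lists were chosen with earlier results of these data known. Named were all members, 6 fixed genes by array, in each comparison the called member with the largest difference in each class and any going against most, and 3 genes of each further list in 3 comparisons. The alternatives were a common median, cyclic loess, a filter on dim genes, a trended eBayes, array weights, fewer arrays, a replicate block, the mean of a gene's rows, 2 other row alignments and leaving out arrays; leaving out 2 CD11b+ or 2 CD8a+ arrays was chosen after seeing the data.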

Additional observations from a re-analysis of the deposited data

Results flagged for a closer look

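In the groups of 5 arrays, 66 sets of values were checked for an array far from the others, and 5 stood out; chance gives about 1 in 20. In CD8a+ cDC after R848, replicate 5 was far below the others for 4 genes: Top2a at 7.21 (next 8.24), Mcm6 at 5.66 (next 6.93), Nusap1 at 5.71 (next 6.47) and Rrm1 at 5.78 (next 6.89). In untreated CD11b+ cDC, replicate 2 had Prc1 at 3.87 (next 4.44). The R848 response of Mcm7 differed between the subsets by 0.95 in the interaction test of limma, which spans 3 array sets. Its treated means were 5.55 in CD11b+ and 5.56 in CD8a+ cDC, and its untreated means 6.92 and 5.98. The difference was called with cyclic loess and not with arrays shifted to a common median.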

How the results depend on the processing

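No called member difference changed sign. Of 65 member calls, the number lost was 4 with a common median, 4 of 59 with cyclic loess, 1 of 64 with the filter on dim genes, 3 with a trended eBayes, 3 with array weights, 8 with the compared arrays alone, 0 with the mean of rows, 1 of 60 with stricter row acceptance, 0 of 58 with rows aligned to the other subset (Mcm7 and Kif11, with 7 calls, had no accepted row there), 9 of 40 without CD11b+ replicates 4 and 5, and 5 of 12 without CD8a+ R848 replicates 4 and 5. Whether the replicate numbers pair the samples is not known. The replicate block lost 9 calls and left 0 members higher in LysoMac against CD11b+ cDC and 1 higher in untreated CD8a+ cDC. It left 1 higher in the R848 response of CD8a+ cDC and 2 higher in the interaction. Where an alternative moved a count, the cause was not tested, except that the filter and loess tested fewer genes and that members without an accepted row had no value in the other row alignments.

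With a common median, untreated CD8a+ against CD11b+ cDC had 6 members higher and a member median of 0.18, and the interaction had 0 higher, 1 lower, a median of -0.29 and 2850 genes called. Cyclic loess gave 6 higher and 0.18 in the first, 2 lower and -0.29 in the interaction, and 5603 genes called in the R848 response of CD8a+ cDC. With the filter on dim genes, 377 genes were called between DN and CD11b+ cDC, 3375 between untreated CD8a+ and CD11b+ cDC (1 member higher), 4093 in the R848 response of CD11b+ cDC (1 member higher), 4527 in that of CD8a+ cDC and 2392 in the interaction, and 2 members were higher in CD8a+ cDC after R848. A trended eBayes gave 1 member higher in untreated CD8a+ cDC. Array weights gave 4 higher there, 2 higher in CD8a+ against CD11b+ cDC after R848, 2 higher in the R848 response of CD8a+ cDC and 2 lower in the interaction. With the compared arrays alone, 26 genes were called between the LysoMac groups and 312 between DN and CD11b+ cDC, 0 members were lower and 1 higher in CD8a+ cDC after R848, and 2 were higher in the interaction. Rows aligned to the other subset gave 1 higher in the R848 response of CD8a+ cDC and 0 in the interaction, where Mcm7 was not measured. Without CD11b+ replicates 4 and 5, 0 members were higher in LysoMac, the median of DN against CD11b+ cDC was -0.12, 4 members were higher in the R848 response of CD11b+ cDC and 3 lower in the interaction. Without CD8a+ R848 replicates 4 and 5, 1 member was higher in CD8a+ cDC after R848, 4 were lower and 2 higher in the response of CD8a+ cDC (median -0.07), and 2 were higher in the interaction.

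Leaving out single arrays gave 0 to 1 members higher in LysoMac against CD11b+ cDC, a median of -0.81 (without DN replicate 2) to -0.60 in LysoMac against DN cDC, 42 (without TIM-4- replicate 1 or 3) to 66 genes called between the LysoMac groups, 0 to 1 members lower in DN cDC, 1 to 3 higher in untreated CD8a+ cDC, 1 to 4 lower and 0 to 1 higher (without CD8a+ replicate 5) in CD8a+ cDC after R848, and 4 to 9 lower and 0 to 2 higher in the R848 response of CD8a+ cDC. In the interaction it gave 0 to 2 lower, with 2 without untreated CD11b+ replicate 4 or treated CD8a+ replicate 1 and 1 without treated CD11b+ replicate 1 or treated CD8a+ replicate 3, and 1 to 2 higher, with 2 without treated CD8a+ replicate 5.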
